A study of Rattus norvegicus with 15 samples.

Results

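The genes described here are Shh, the Hedgehog ligand made by dental epithelium, and 8 genes through which cells receive or answer it, namely Ptch1, Hhip, Boc, Gas1, Smo, Gli1, Gli3 and Sufu. They were chosen by name, as known parts of the pathway, and all 9 of 9 had a row among the 14185 genes of the expression table. They were measured by RNA-seq in 15 rat molar germs, each library made from a single tooth. A wider list of 44 Hedgehog pathway genes, of which 42 had a row, served as the surroundings (Gli2 and Rpgrip1 are not analysed here).

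The germs were first molars of wild type rats of the DA/HanRj strain at 3 stages, with 5 libraries per stage and no treatment. The E15 group was taken on E15.5 and the E17 group on E17.5, which the study treats as bud and cap stage teeth. The E18 group was taken at embryonic day 18 and is labelled as lower first molar. The series holds 9 left and 6 right teeth, and 1 embryo gave both E17 replicate 1 (left) and E17 replicate 2 (right), so these 2 libraries do not come from separate animals. Each stage carries its own code in the sample titles, and what the code stands for is not given in the sources used here, so stage cannot be told apart from whatever the code marks. Whole germs hold epithelium and mesenchyme together, so fewer cells of a type and less RNA per cell cannot be told apart.

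Hedgehog signalling runs through the removal of a brake. Without ligand, the receptor Ptch1 holds the membrane protein Smo inactive and Gli3 is processed into a repressor. When ligand binds Ptch1, Smo becomes active at the primary cilium and Gli proteins switch on targets that include Gli1, Ptch1 and Hhip, so that these 3 transcripts are used as readouts of the response. In teeth, Shh is known from the enamel knot, the epithelial signalling centre that marks the cap stage, while Ptch1 and Gli1 are known from both tissues around it.

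Because Ptch1 is a direct Gli target, its promoter is shown with the Gli consensus. Promoter windows reaching 250 bases before to 50 bases after a transcription start were available from RefSeq, and 6 of the 9 genes had one (Ptch1, Smo, Gli3, Hhip, Sufu and Boc). Both strands were searched for GACCACCCA, the Gli consensus, whose reverse complement is TGGGTGGTC. The exact letters stood in 1 of the 6 windows, that of Ptch1, and in 129 of all 33469 windows, a share of 0.385%. Allowing up to 1 mismatch, 2452 of all windows, or 7.33%, held it. The stretch below is from the rat assembly GRCr8, chr17:1555359-1555447 on the plus strand, 5′ to 3′, with the match in capitals. It ends upstream of 1 of the RefSeq starts of Ptch1, with the match 164 to 172 bases before that start.
Ptch1: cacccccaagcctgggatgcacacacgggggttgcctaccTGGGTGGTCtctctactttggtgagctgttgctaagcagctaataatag
The match describes these letters in this window and was not tested for binding in the tooth. The other 5 windows held no exact match, which says only that these letters are absent from those windows.

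Depth ranged from 10993502 to 27571541 estimated counts per library, so that the floor of 3 counts corresponded to 0.109 to 0.273 CPM, counts scaled to a common library total. Levels are given as CPM after TMM scaling, which evens out differences in library composition. Expression profiles within a stage correlated with a mean of 0.9649 to 0.9869 per library, with E18 replicate 3 apart at 0.9222. That library lay below the other 4 E18 libraries in 5100 and above them in 5052 of 12718 genes tested, and above them in 4 of the 9 genes described here. E18 results are therefore also given without it where they move. E15 replicate 3 had the lowest correlation of its stage, 0.9649. Its chi-square per gene, a measure of difference between 2 libraries, was 43.87 to 65.37 against the other E15 libraries. The remaining E15 pairs had 6.904 to 12.05.

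Shh, at or near the floor in 3 of the 5 bud stage teeth, rose at both steps. The E15 libraries held 1.95, 0.0814, 0.613, 3.46 and 0 CPM of Shh, which rest on 48, 1, 7, 45 and 0 counts. The E17 libraries held 27.3, 28.8, 37.1, 35.8 and 27.4 CPM, and the E18 libraries 51.2, 82.2, 83.1, 88.8 and 93.2 CPM. The 3 stages did not overlap: the highest bud stage tooth was far below the lowest cap stage tooth, and E18 replicate 1 stood apart below the other 4 E18 teeth. The mean was 1.22 ± 1.48 CPM at E15, 31.3 ± 4.79 at E17 and 79.7 ± 16.6 at E18 (SD, n = 5 each).

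The fitted log2 fold change of Shh was 4.57 ± 0.51 (SE, adjusted p = 5.2e-05) from E15 to E17 and 1.35 ± 0.16 (adjusted p = 0.00187) from E17 to E18 in edgeR's quasi-likelihood test. From E15 to E18 it was 5.94 ± 0.66 (adjusted p = 9.26e-05). The size of the change from E15 rests on 3 libraries with 7 or fewer counts and is less certain than its direction, with a 95% interval of 3.46 to 5.67 for E17 against E15. Without E18 replicate 3 the change from E17 to E18 was 1.32, and without E18 replicate 1 it was 1.47. With all 15 libraries in 1 fit the adjusted p of that change was 0.0931.

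Of the other 2 Hedgehog ligands, Ihh was lower at E18 than at E15 and Dhh passed no test between stages. Ihh, known from cartilage and gut, had 38 to 110 counts per library at E15, 11 to 82 at E17 and 3 to 27 at E18. Its level fell from 5.33 ± 2.30 to 3.04 ± 1.55 and 0.746 ± 0.403 CPM, with every E18 library below every E15 library. The change from E15 to E18 was -2.77 ± 0.42 (adjusted p = 0.000786), while neither single step passed the test (adjusted p = 0.188 for the first and 0.0567 for the second). The second step, at -1.97 ± 0.48, passed without E17 replicate 1 (adjusted p = 0.0262) and without E18 replicate 3 (adjusted p = 0.0349). Dhh, known from testis and nerve sheath, held 14.0 ± 3.53, 15.9 ± 1.49 and 18.8 ± 1.70 CPM. Every E18 library of Dhh lay above every E17 library, with a log2 fold change of 0.25 ± 0.11 (adjusted p = 0.282).

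The receptor Ptch1, which is both the brake on the pathway and a target of it, rose at each step. Its libraries held 264, 246, 341, 379 and 295 CPM at E15, 546, 660, 601, 640 and 600 CPM at E17, and 714, 877, 795, 937 and 965 CPM at E18. No library of one stage overlapped with those of another. The log2 fold change was 1.00 ± 0.11 (adjusted p = 3.43e-05) from E15 to E17, a doubling, and 0.49 ± 0.10 (adjusted p = 0.0226) from E17 to E18. The second step missed the threshold when any 1 of 7 libraries was left out (E17 replicates 1, 3, 4 or 5, or E18 replicates 2, 4 or 5), with adjusted p from 0.0528 to 0.0727. Without E18 replicate 3 it was 0.52 (adjusted p = 0.00301).

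Hhip, a membrane protein that captures Hedgehog ligand and is itself induced by the pathway, held 19.5, 19.5, 14.4, 20.7 and 14.2 CPM at E15 and 39.6, 33.5, 30.0, 32.0 and 33.7 CPM at E17. The E17 libraries lay above every E15 library, and the log2 fold change was 0.93 ± 0.12 (adjusted p = 0.000185). At E18 it held 36.3, 41.0, 43.0, 42.3 and 44.2 CPM, where E18 replicate 1 lay below the highest E17 library. The second step was 0.29 ± 0.10 and did not pass the test (adjusted p = 0.161, 95% interval 0.08 to 0.51).

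**Figure D1:**
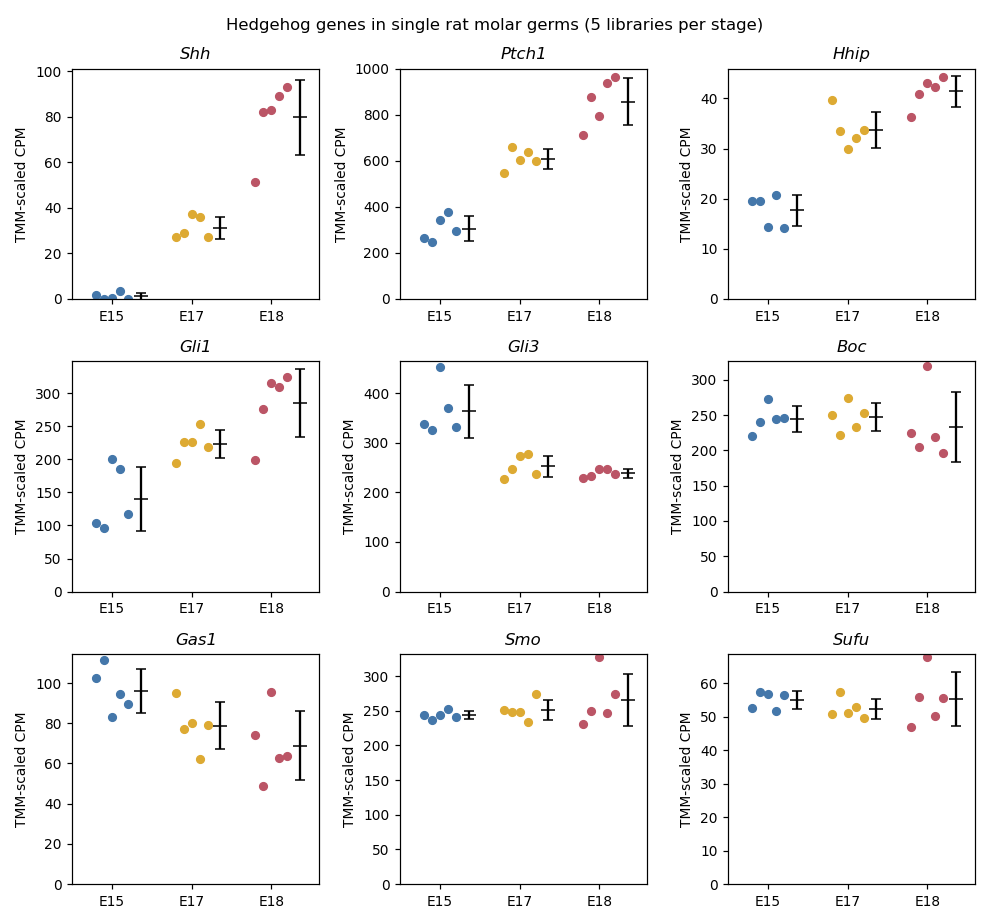
Level of each of the 9 genes in each library (points, TMM-scaled CPM on the vertical axis) at E15, E17 and E18, with the mean and SD beside each group of 5 (the SD bar of Shh at E15 is cut off at 0). Shh and Ptch1 separate all 3 stages, Gli3 drops after E15, and Boc, Gas1, Smo and Sufu show their highest E18 value in replicate 3.

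The co-receptors Boc, Cdon and Gas1, cell surface proteins that help present Hedgehog ligand to Patched and are known to be lowered by signalling, did not rise with the ligand. Boc held 221 to 272 CPM at E15, 222 to 274 at E17 and 225, 205, 319, 219 and 196 CPM at E18. The 3 stages overlapped, with log2 fold changes of 0.02 ± 0.07 (95% interval -0.14 to 0.17) and -0.08 ± 0.13 (95% interval -0.36 to 0.20) in the 2 steps. E18 replicate 3 carried the high value, and without it the second step was -0.23 (adjusted p = 0.0719).

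Gas1 held 102, 111, 83.25, 94.45 and 89.8 CPM at E15, 94.96, 77.4, 80.2, 62.2 and 79.0 CPM at E17, and 74.2, 48.8, 95.3, 62.5 and 63.8 CPM at E18. The stages overlapped at each step. The first step was -0.29 ± 0.10 (adjusted p = 0.0766), and it passed without E15 replicate 3 (adjusted p = 0.0228) and without E17 replicate 1 (adjusted p = 0.0284). From E15 to E18 the log2 difference was -0.48 ± 0.16 and missed the threshold (adjusted p = 0.0556), but without E18 replicate 3 it was -0.61 (adjusted p = 0.00248). On all libraries it also passed with DESeq2's size factors (adjusted p = 0.0477), DESeq2's Wald test (adjusted p = 0.0254) and all 15 libraries in 1 fit (adjusted p = 0.0272). This made 6 of the 9 genes called in each of these fits, for which the share of all genes called is not reported here. Cdon, at 212 ± 23.1, 184 ± 18.2 and 154 ± 27.6 CPM, was lower at E18 than at E15 by -0.45 ± 0.13 (adjusted p = 0.0287), and this call was lost when any 1 of 6 libraries was left out (E15 replicates 2, 3 or 4, or E18 replicates 2, 4 or 5, adjusted p 0.0621 to 0.0773).

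Smo, the membrane protein that Patched restrains and that passes the signal inward, held 237 to 253 CPM at E15, 234 to 274 at E17 and 230 to 327 at E18. Its log2 fold change was 0.05 ± 0.05 (95% interval -0.07 to 0.16) from E15 to E17 and 0.08 ± 0.10 (95% interval -0.13 to 0.29) from E17 to E18. Its 3 stages overlapped. Without E18 replicate 3, the library with 327 CPM, the second value was -0.01.

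The Gli factors, which carry the signal to DNA, moved in opposite directions. Gli1, an activator that is switched on by the pathway and serves as its usual readout, held 104, 96.75, 200, 185 and 117 CPM at E15 and 195, 226, 226, 253 and 218 CPM at E17. E15 replicates 3 and 4 stood well above the other 3 bud stage teeth, and replicate 3 overlapped with the lowest E17 tooth. The log2 fold change was 0.67 ± 0.18 (adjusted p = 0.0217), and the call was lost without E15 replicate 1, E15 replicate 5 or E17 replicate 4 (adjusted p 0.0507, 0.05 and 0.0547). At E18 it held 199, 276, 315.5, 310 and 324 CPM, where replicate 1 lay within the E17 range. The second step of Gli1 was 0.35 ± 0.13 (adjusted p = 0.214) with all 5 E18 libraries and 0.45 (adjusted p = 0.0225) without replicate 1.

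The same 2 E15 teeth, replicates 3 and 4, also held the most Ptch1 (341 and 379 CPM) and the most Gli3 (453 and 370 CPM) of their stage. They differed in Shh, with 7 counts in replicate 3 and 45 in replicate 4. As given above, replicate 3 had the lowest correlation of the E15 libraries. The most Shh at E15 was in replicates 4 and 1, which are the 2 right teeth of that stage, while Gli1 in replicate 1 was 104 CPM.

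Gli3, the factor whose processed form represses Hedgehog targets, held 337, 325, 453, 370 and 331 CPM at E15, 228, 247, 272, 278 and 237 CPM at E17, and 228, 232, 247, 248 and 237 CPM at E18. Every E15 library lay above every later one, while E17 and E18 overlapped. Gli3 fell by 0.52 ± 0.09 on the log2 scale (adjusted p = 0.0019) in the first step, and the second step was -0.08 ± 0.07 (95% interval -0.24 to 0.08). These are transcript levels and do not separate full-length protein from the repressor.

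Within each library the count ratio of Gli1 to Gli3 does not depend on scaling. It was 0.380 ± 0.088 at E15, 0.886 ± 0.0414 at E17 and 1.19 ± 0.19 at E18 (SD, n = 5 each). All E15 values, 0.298 to 0.501, lay below all E17 values, 0.828 to 0.919. At E18 replicate 1 had 0.871, inside the E17 range, and the other 4 teeth had 1.19 to 1.37. The ratio carries the lengths of both transcripts, so its change between stages can be read but its distance from 1 cannot. Counted the same way, Shh was 0.373% of Ptch1 at E15, 5.13% at E17 and 9.23% at E18, with no overlap between stages.

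Sufu, the cytoplasmic protein that binds and restrains Gli factors, held 51.8 to 57.3 CPM at E15, 49.5 to 57.3 at E17 and 46.9 to 67.8 at E18. The 3 stages overlapped. The log2 fold changes were -0.07 ± 0.06 and 0.08 ± 0.10, with 95% intervals of -0.20 to 0.07 and -0.14 to 0.30. Kif7, the cilium kinesin that regulates Gli processing, had log2 fold changes of -0.04 ± 0.08 and 0.13 ± 0.10 and passed the test in no stage comparison.

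Counted together, 5 of the 9 genes passed the test from E15 to E17, against 18.3% of the 12627 genes tested. Shh, Ptch1, Hhip and Gli1 rose (4 of 9, against 11.3% of all genes higher) and Gli3 fell (1 of 9, against 7.02% lower). Libraries of the 2 stages did not overlap for 4 of the 9 genes, against 16.2% of all genes. The median log2 fold change of the 9 was 0.05, the value of Smo, near the -0.01 of all genes. Smo, Sufu, Boc and Gas1 did not pass.

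From E17 to E18, 2 of the 9 genes passed, Shh and Ptch1, against 2.54% of 12718 genes tested. Both rose (1.91% of all genes were higher) and none of the 9 fell (0.629% lower). EdgeR gave an unadjusted p under 0.05 to 4 of the 9 and to 2021 of all 12718 genes. Stages did not overlap for Shh and Ptch1, 2 of the 9, against 6.76% of all genes. The median was 0.08 for the 9 genes and -0.02 for all genes. In 7 of the 10 fits that left out 1 library, Shh was the 1 gene that passed.

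From E15 to E18, which shares libraries with both steps, the genes that passed were Shh, Ptch1, Hhip, Gli1 and Gli3, 5 of 9 against 21.0% of 12661 genes. The 4 higher genes stand against 14.2% of all genes and the 1 lower gene against 6.73%. Stages did not overlap for 4 of the 9, against 22.8%. Hhip reached 1.23 ± 0.13 (adjusted p = 7.74e-05), Gli1 1.02 ± 0.22 (adjusted p = 0.00678) and Gli3 -0.60 ± 0.10 (adjusted p = 0.00128).

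Of the 33 other pathway genes, none rose and 1 fell (Kif3a, a motor subunit needed to build cilia, -0.43 ± 0.10, adjusted p = 0.00949) from E15 to E17, where 18.3% of all genes were called. Their median log2 fold change was -0.07. An unadjusted p under 0.05 in edgeR was found for 8 of 33, and for 4042 of all 12627 genes. From E17 to E18, 0 of 33 were called by edgeR and 2 by DESeq2, against 2.54% of all genes in edgeR. Their median was -0.05, and 5 of 33 had an unadjusted p under 0.05 in edgeR, where 2021 of all 12718 genes did. From E15 to E18, 1 rose and 4 fell, against 21.0% of all genes called, and 8 of 33 did not overlap, against 22.8%. The median was -0.19, and 11 of 33 had an unadjusted p under 0.05 in edgeR, where 4270 of all 12661 genes did. The 1 that rose was Kctd11, which is known to hold Hedgehog signalling back, at 1.58 ± 0.28 (adjusted p = 0.00216) on 11 to 162 counts. The 4 that fell were Ihh, Cdon, Kif3a (-0.53 ± 0.13, adjusted p = 0.0108) and another cilium gene, Intu (-0.44 ± 0.12, adjusted p = 0.0208, and 0.0542 without E18 replicate 5).

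By role, the 16 cilium genes, whose products build the organelle in which Smo acts, had 1, 0 and 2 calls in the E17 against E15, E18 against E17 and E18 against E15 comparisons. In each of these calls the level fell, where 7.02%, 0.629% and 6.73% of all genes were lower, shares too close to those of the cilium genes to read as a result about them. The 14 cytoplasmic regulators other than Sufu had 0, 0 and 1 calls, the 1 being Kctd11, which was higher, where 11.3%, 1.91% and 14.2% of all genes were higher. In E18 replicate 3, 9 of the 16 cilium genes lay below and 5 above the other 4 E18 libraries. Of all 12718 genes tested, 5100 lay below and 5052 above, so lying outside their range was common in that library.

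**Figure D2:**
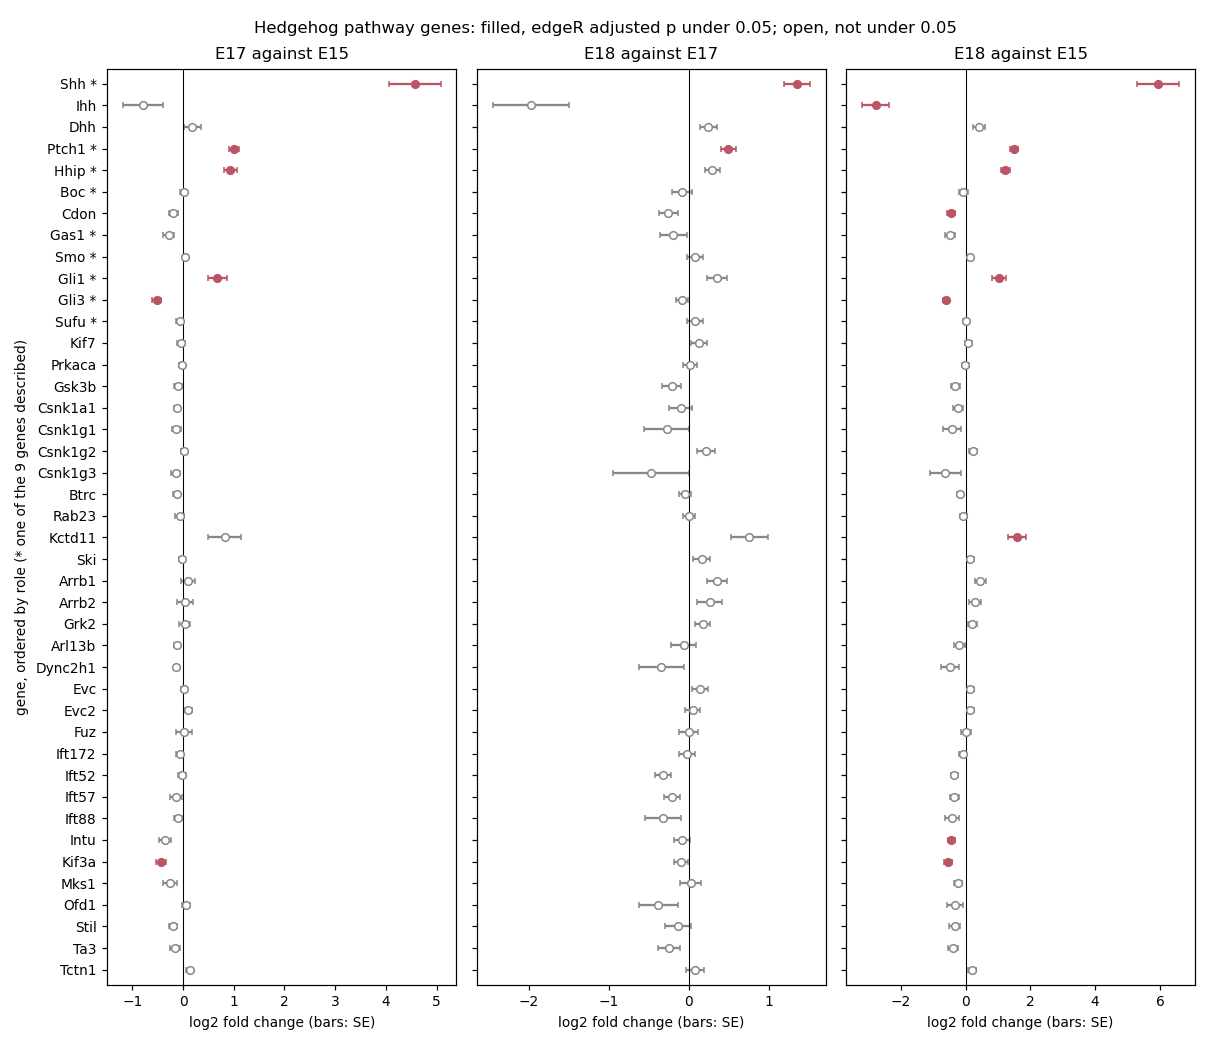
Log2 fold change (horizontal axis, bars are SE) of the 42 pathway genes, ordered by role, in the 3 stage comparisons, each panel with its own scale. Filled points passed the test at an adjusted p under 0.05, and apart from Shh, Ptch1, Hhip, Gli1, Gli3, Ihh, Cdon, Kctd11, Kif3a and Intu all genes are open in all 3 panels.

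**Figure D3:**
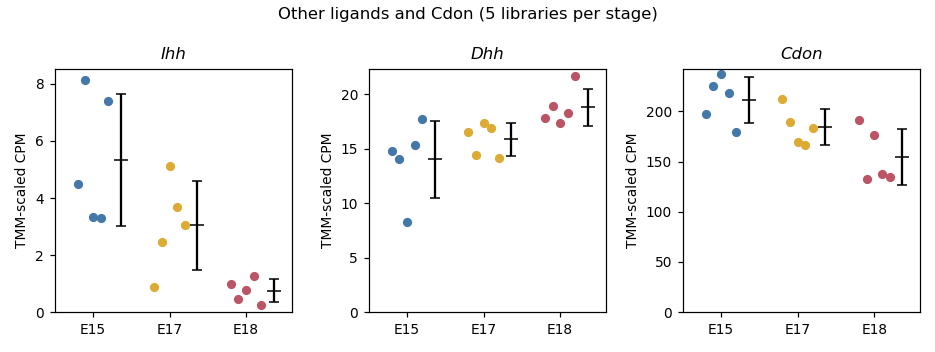
Level in each library (points, TMM-scaled CPM, with mean and SD of 5 libraries per stage) of the ligands Ihh and Dhh and the co-receptor Cdon. Ihh and Cdon were lower at E18 than at E15, and the Dhh means lie between 14.0 and 18.8 CPM.

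Tissue markers moved with the stages too. The 6 epithelial markers with a row, among them Trp63, Perp and Edar, summed to 272 to 401 CPM at E15, 591 to 696 at E17 and 700.3 to 950.3 at E18. Of these, 6 of 6 were higher at E17 than at E15 (median log2 fold change 0.98), 2 of 6 were higher at E18 than at E17 (median 0.29) and 6 of 6 at E18 than at E15 (median 1.25). The 6 dental mesenchyme markers with a row, among them Msx1, Lhx6 and Lhx8, summed to 1931 to 2228 CPM at E15, 1509 to 1685 at E17 and 1239 to 1635 at E18, with 4, 0 and 3 of 6 lower in the same comparisons. Pdgfra, at 844 ± 87.2, 700 ± 74.1 and 561 ± 53.0 CPM, made up the most of that sum. Barx1, at 200 ± 21.4, 173 ± 13.7 and 199 ± 32.7 CPM, and Pax9 passed in none of these comparisons. Markers of both tissues were thus present in every library. Of the 2 bone markers with a row, Spp1 was higher at E17 than at E15 (3.61 ± 0.87), and the osteoclast marker Mmp9 was higher as well (3.55 ± 0.48), both also at E18 against E15, and neither passed the test from E17 to E18. The other bone marker, Dmp1, passed no stage comparison, with log2 differences of 1.17 ± 0.68 from E15 to E17 and -1.53 ± 0.63 from E17 to E18.

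Set against the epithelial markers, the genes fell into different patterns. Per 100 CPM of the summed epithelial markers, Shh stood at 0.391 ± 0.533 at E15, 4.83 ± 0.695 at E17 and 9.89 ± 2.14 at E18, with no overlap between stages. Ptch1, at 90.4 ± 28.2, 94.7 ± 11.9 and 106 ± 12.2, overlapped between all stages. Hhip, at 5.26 ± 1.63, 5.22 ± 0.521 and 5.16 ± 0.683, and Gli1, at 41.6 ± 17.4, 34.7 ± 4.12 and 35.5 ± 7.74, overlapped likewise. The rise of Ptch1, Hhip and Gli1 was thus about as large as that of the epithelial markers, while Shh rose beyond them.

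Set against the mesenchymal markers, Ptch1 stood at 14.99 ± 2.34, 38.8 ± 4.64 and 62.9 ± 11.5 per 100 CPM, with no overlap between stages, and Gli1 at 6.92 ± 2.36, 14.3 ± 1.99 and 20.7 ± 3.94. Gli3 stood at 17.95 ± 3.10, 16.1 ± 2.17 and 17.4 ± 1.48, and Gas1 at 4.74 ± 0.575, 4.98 ± 0.580 and 4.94 ± 0.733, both overlapping between stages. Gli3 and Gas1 thus kept pace with the mesenchymal markers. So did Cdon, at 10.4 ± 1.33, 11.7 ± 0.819 and 11.2 ± 1.64, also overlapping between stages. Hhip, with means of 0.866, 2.14 and 3.02, and Smo, with 12.0, 15.9 and 19.2, rose against them with no overlap between stages. Boc, with 12.1, 15.7 and 16.7, and Sufu, with 2.72, 3.33 and 4.01, were also higher after E15, while E17 and E18 overlapped. These quotients are descriptions with no test, and the part of tissue proportions in the stage differences was not tested.

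**Figure D4:**
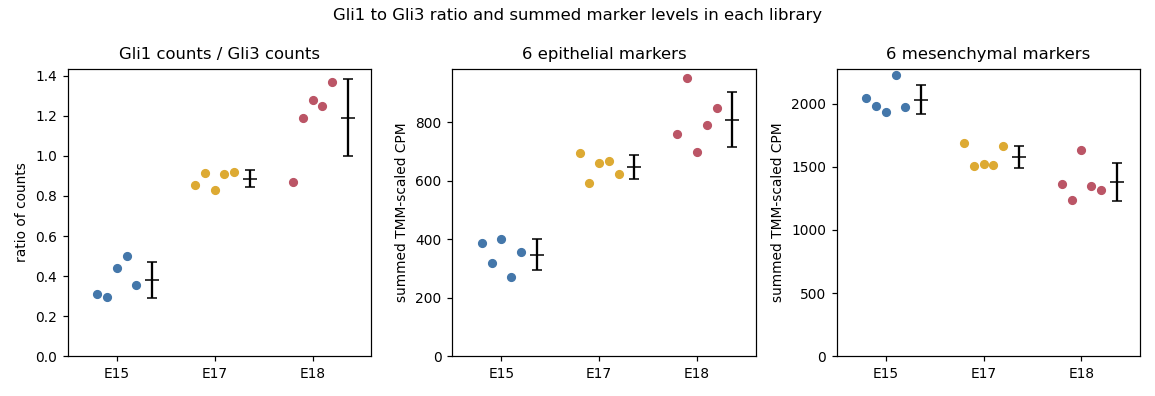
Count ratio of Gli1 to Gli3 (left), summed level of the 6 epithelial markers (middle) and of the 6 mesenchymal markers (right, both in TMM-scaled CPM) in each library, with mean and SD of 5 libraries per stage. The ratio goes from 0.380 at E15 to 1.19 at E18 on average, while the epithelial sum rises from 348 to 810 CPM and the mesenchymal sum declines from 2032 to 1381 CPM.

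Whether the second step differed in size from the first was examined in 1 fit over 15 libraries. None of the 9 genes passed (0 of 9, against 0.551% of 12894 genes). EdgeR gave an unadjusted p under 0.05 to 4 of the 9 and to 1110 of all 12894 genes. The difference was -3.22 ± 0.73 for Shh (adjusted p = 0.0647), -0.64 ± 0.20 for Hhip (adjusted p = 0.248), -0.51 ± 0.20 for Ptch1 (adjusted p = 0.432) and 0.44 ± 0.16 for Gli3 (adjusted p = 0.333). The difference for Shh passed without E18 replicate 3 (-3.21, adjusted p = 0.0145) and without E15 replicate 4 (-3.88, adjusted p = 0.0156). The first step runs from E15.5 to E17.5, which is 2 days, and the second from E17.5 to E18, which is less. The test therefore compares the sizes of 2 steps that are not equal in time. A change in rate per day was not tested.

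Right and left teeth were compared with stage in the model. None of the 9 genes passed (0 of 9, against 0% of 12894 genes), with 0 of 9 and 117 of all genes at an unadjusted p under 0.05 in edgeR. Shh gave the widest interval, -0.32 to 1.28 around 0.48, and Gli3 gave -0.05 with an interval of -0.21 to 0.12.

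The genes whose course over the 15 libraries was most like that of 3 of the Hedgehog genes were sought among 349 genes with a symbol, by the root mean square difference between centred log2 CPM profiles. These symbols came from the study, which lists genes of tooth development and signalling pathways. The remaining genes were not searched, and nearer profiles may lie among them. Sp6, a transcription factor of dental epithelium, lay nearest to Shh at 1.21, and it held 2.22 ± 0.497, 40.7 ± 3.44 and 84.5 ± 19.7 CPM at E15, E17 and E18. Fgf3, a fibroblast growth factor of the tooth, followed at 1.40, with 0.114 ± 0.159, 7.43 ± 2.47 and 8.35 ± 1.71 CPM. Cyp26c1, a retinoic acid degrading enzyme, lay at 1.56, with 0.533 ± 0.322, 3.29 ± 1.81 and 16.5 ± 3.30 CPM. Nectin1, a cell adhesion protein, lay nearest to Ptch1 at 0.23, followed by Gli1 at 0.25 and Sdc4 at 0.26. For Gli1 the order was Ptch1 at 0.25, then the ligand Bmp7 and the receptor Notch1, both at 0.30. Shh lay further from its neighbours than Ptch1 and Gli1 did from theirs, and its profile at E15 rests on 0 to 48 counts per library.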

How the data were processed

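The authors deposited salmon estimated counts as whole numbers per gene under mouse Ensembl identifiers for all 15 libraries. Their notes name Trimmomatic, FastQC 0.11.8 and Salmon 0.99.0, and for E15 and E17 also STAR and HTSeq, with the build Rnor_6.0. A second deposited table, of HTSeq counts for E15 and E17, was not used because its rat identifiers could not be joined to symbols with the tables at hand. Symbols came from 399 pairs of symbol and mouse identifier given by the study, so marker lists were joined in part (epithelium 6 of 10, dental mesenchyme 6 of 8, bone 2 of 5, osteoclast 1 of 3) and lists for cartilage, muscle, endothelium, glia and blood were not analysed here.

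Each stage comparison was fitted on its 10 libraries across all genes passing filterByExpr with edgeR 4.0.16 (R 4.3.3, limma 3.58.1), with TMM scaling, the quasi-likelihood F test and Benjamini-Hochberg adjustment, and a gene was called at an adjusted p under 0.05. The second step against the first, and right against left with stage in the model, used all 15 libraries. All 9 genes passed the filter in each fit. The SE is the log2 fold change over the square root of F, and 95% intervals use the t distribution with the degrees of freedom of the fit. Levels are TMM-scaled CPM, and log2 profiles used a prior count of 2. Floors cover counting error only. P-values measure the spread between single teeth, which within a stage share a code in the sample titles. No 2 libraries agreed within sampling noise (chi-square per gene at least 6.21 in every pair within a stage). The fits were tested on simulated counts.

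The text names all 9 genes, then Ihh, Dhh, Cdon and Kif7, any pathway gene called between stages, and the 3 nearest profiles of Shh, Ptch1 and Gli1. The genes and lists were chosen with earlier results of these data known, and some listed genes are not reported here. Promoters were RefSeq windows of GRCr8, another build than that of the counts, matched by symbol. Alternatives were DESeq2 1.42.0 (size factors and Wald test), upper-quartile scaling, other filters (no filter, or at least 10 counts in every library), 1 fit over all libraries, side as a covariate, both teeth of 1 E17 embryo summed, and leaving out each library.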

Additional observations from a re-analysis of the deposited data

Results flagged for a closer look

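Among 69 groups of 5 values (the stages of the genes named here and of the ratios and summed markers), 3 held a value that stood further from the other 4 than Dixon's 95% limit allows, where chance gives about 3.45. In E18 replicate 1, Shh stood low at 51.2 CPM beside 82.2 to 93.2 CPM. In the same library Ptch1 (714 CPM), Hhip (36.35 CPM) and Gli1 (199 CPM) were the lowest of their stage. So were Smo (230.5 CPM), Gli3 (228 CPM) and Sufu (46.9 CPM), while Boc and Gas1 were not. E18 replicate 1 was also the deepest library, with 27571541 counts. Boc stood high in E18 replicate 3, at 319 CPM beside 196 to 225 CPM, in the library whose profile correlated least with those of its stage. Intu stood high in E15 replicate 2, at 33.4 CPM beside 23.8 to 25.9 CPM in the other E15 teeth.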

How the results depend on the processing

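No paired analysis was possible because embryo numbers name different embryos at each stage and replicate numbers follow accession order. The 18 values of single genes that passed the test kept their direction in all 323 refits and lost the call in 18. Of 681 refits of the 36 values that had not passed, 28 passed and 10 changed sign. With DESeq2's Wald test, 4 in place of 1 other pathway genes were called from E15 to E17, and 2 in place of 0 from E17 to E18. With all 15 libraries in 1 fit, 1 in place of 2 of the 9 genes and 1 in place of 0 other pathway genes were called from E17 to E18, and 9 in place of 5 other pathway genes from E15 to E18. With side as a covariate, 2 other pathway genes were called from E15 to E17, and with both teeth of 1 E17 embryo summed, 1 from E17 to E18. With E18 libraries 2, 4 and 5 only, a choice made after seeing the data, 6 of the 9 genes (Shh, Ptch1, Hhip and Gli1 higher, Boc and Gas1 lower) and 3 other pathway genes were called from E17 to E18, 8 other pathway genes from E15 to E18, and 1 gene, Shh, differed between the steps. Leaving out 1 library gave 1 to 3 of the 9 genes and 0 to 1 other pathway genes from E17 to E18 (1 without E17 replicate 1 or E18 replicate 3), 1 to 2 other pathway genes from E15 to E17 (2 without E15 replicate 3 or E17 replicate 3), 3 to 7 from E15 to E18 (3 without E18 replicate 5), and 0 to 1 gene that differed between the steps. The share of all genes called in each of these refits is not reported here. The counts from these refits therefore cannot be set against the shares of the main fits. Log2 values near 0 changed sign. Boc from E15 to E17 ranged from -0.024 to 0.058, Smo from E17 to E18 from -0.0079 to 0.13 and Sufu from E17 to E18 from -0.0088 to 0.13. Sufu from E15 to E18 ranged from -0.067 to 0.065, and was -0.0033 with DESeq2's size factors, -0.0053 with its Wald test and -0.022 with E18 libraries 2, 4 and 5 only. The cause of these differences was not tested, except that fits with fewer libraries hold fewer degrees of freedom. Requiring at least 10 counts in every library removed Shh from the fits with E15. The refit on HTSeq counts was not run.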
